A study of Danio rerio with 6 samples.

Results

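The 5 genes described here are fshr, inha, inhbaa, fsta and amh of the zebrafish, which encode the receptor for follicle-stimulating hormone (FSH) and 4 secreted proteins of the activin, inhibin and anti-Müllerian hormone system. They were taken by their Ensembl identifiers from the 31540 genes of the count table: ENSDARG00000071494 for fshr, ENSDARG00000052433 for inha, ENSDARG00000012671 for inhbaa, ENSDARG00000052846 for fsta and ENSDARG00000014357 for amh. The study compared ovarian follicles before and after follicle activation, the step from the primary growth to the pre-vitellogenic stage. Pre-vitellogenic (PV) follicles, in which the oocyte has formed cortical alveoli and is surrounded by a continuous follicle cell layer, were set against primary growth (PG) follicles, the small transparent follicles that precede them. Both stages came from wild type fish of the AB strain, with 3 libraries of PV follicles and 3 of PG follicles, each made from fish pooled in groups of 3. By the methods each group of fish gave follicles of both stages, so PV and PG libraries do not come from separate animals. Stages were separated with sieves, PV follicles being held between a pair of coarser meshes and PG follicles passing the finest, so whole follicles with oocyte and follicle cells were sequenced together. The age of the fish is not given in the sources used here.

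FSH is released by the pituitary and acts on the follicle cells through Fshr, a receptor that is coupled to a stimulatory G protein and raises cyclic AMP. Activins are dimers of beta subunits, whereas inhibins pair a beta subunit with the alpha subunit encoded by inha, and in mammals inhibin lowers FSH release that activin raises. Follistatin, the product of fsta, binds activin and blocks it, and anti-Müllerian hormone, the product of amh, is a TGF-β family ligand of the follicle cells that in mammals restrains the recruitment of small follicles.

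The study also designed RT-qPCR primers for 4 of these genes. They are printed 5′ to 3′, in lower case throughout because no base is singled out, and were not aligned to any transcript here. None of the counts below was measured with them.
fshr forward: aacatgcacatagagaggattcccag
fshr reverse: gctcagtaaacagctccaggc
inha forward: agcctcctctgccagtgttg
inha reverse: atgttgatggaagcgatggtctc
inhbaa forward: aacaggcagaacagacggagatc
inhbaa reverse: gcagccgaatgttgacgttagc
amh forward: atgaagtgttgatgagaaaggtggatg
amh reverse: tacagtcggcgtggaggaattg

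The libraries held between 14492086 and 36603108 counts, and the shallowest one was PG replicate 3. Values are given as raw counts and as normalized counts, the raw count divided by the size factor of the library. Intervals, limits and expected spreads below treat each count as independent. Both mates of a read pair add to a count, so intervals may be too narrow, fold limits too high and expected spreads too small. A gene was called higher or lower when its adjusted p was 0.05 or less and its log2 fold change, PV over PG, was at least 1 in size. By this rule 19.2% of the 15899 genes tested were called, 13.2% higher in PV follicles and 5.97% lower, with 0.03 as the median log2 fold change over all of them. Whole follicles were sequenced, so in every result below more follicle cells and more RNA per follicle cell cannot be told apart.

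All 5 genes were called higher in PV follicles, beside the 13.2% of all genes that were (19.2% called in either direction), and for each of them every PV value lay above every PG value, as was the case for 36.5% of all tested genes. All 5 passed the filter on low counts, but of them inha alone had enough counts in PG libraries to pass there, so fshr, inhbaa, fsta and amh could enter the test only by being higher in PV follicles and the count of 5 is a description. Their levels in PV follicles were low for libraries of this depth, between 15 and 247 counts. The genes differed in their counts in PG libraries: inha had counts in all 3 PG libraries, while fsta had none in any.

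**Figure D1:**
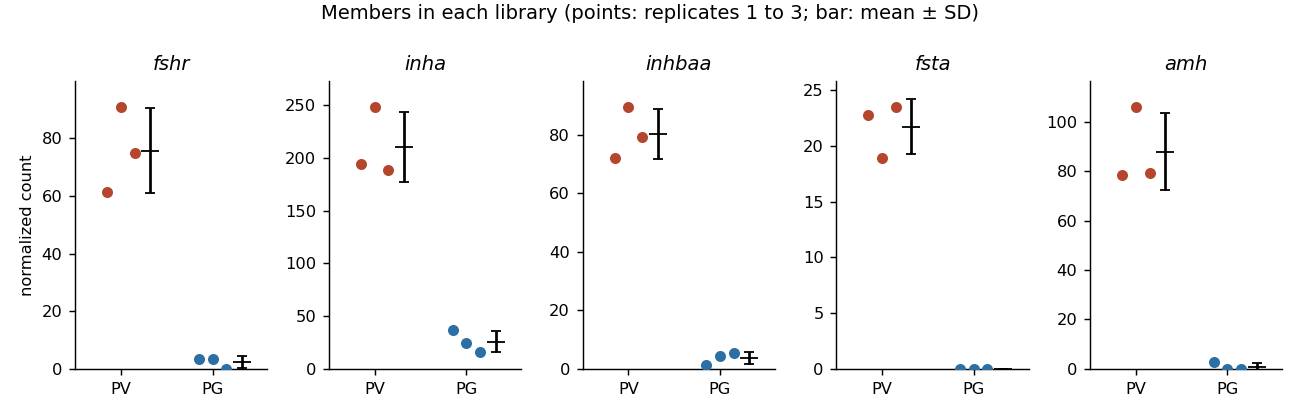
Normalized counts (vertical axis, from 0, with its own scale for each gene) of the 5 genes in the 3 PV and the 3 PG libraries. Points are libraries in the order of their replicate numbers and the bar beside them is the mean with its SD; PV values of fshr lie between 61.2 and 90.7 and its PG values at 3.55 or less, and every gene plotted lies higher in PV libraries without overlap, as 36.5% of all tested genes do.

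For fshr, the PV libraries held 78, 72 and 86 counts, against 5, 4 and 0 counts in the PG libraries. The normalized count averaged 75.6 ± 14.8 in PV follicles and 2.36 ± 2.04 in PG follicles (SD, n = 3 each). The rise was 4.66 on the log2 scale, with a standard error of 0.47 (adjusted p = 1.33e-05, edgeR). Summed over libraries, PV follicles had 25.2-fold more fshr, with a 95% interval from counting error alone of 13.0 to 55.8. The PG library without a count was the shallowest one, in which the rate of the other PG libraries would have given 1.98 counts, so the 0 there does not separate it from them. At the PV level the same library would have held 40.9 counts. FSH receptor RNA was thus counted in PG libraries, at a level near the limit of detection. Which cells of the sieved PG fraction gave these few counts was not tested.

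The sister receptor lhcgr (ENSDARG00000026081), which binds luteinizing hormone, held 8, 6 and 2 counts in PV follicles and 7, 10 and 0 counts in PG follicles. These counts were too few to pass the expression filter, so lhcgr was not tested. Its summed PV to PG ratio was 0.904, with a counting interval of 0.428 to 1.90, which lies wholly below the interval of fshr.

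The alpha subunit gene inha had the most counts of the 5 genes at either stage and the smallest fold change. It had 247, 197 and 217 counts in PV libraries, against 52, 28 and 9 counts in PG libraries. The normalized count was 210 ± 33 in PV follicles and 25.9 ± 10.2 in PG follicles (SD, n = 3 each), and inha rose by 2.90 on the log2 scale (standard error 0.24, adjusted p = 3.40e-06, edgeR). The PG values spread more widely for their size than the PV values, with PG replicate 1 highest at 36.6 and PG replicate 3 lowest at 16.2.

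The beta A subunit gene inhbaa rose further. Its counts were 92, 71 and 91 in PV libraries, against 2, 5 and 3 in PG libraries, so every PG library held it but none held more than 5 counts. The normalized count was 80.3 ± 8.68 in PV follicles and 3.75 ± 2.09 in PG follicles (SD, n = 3 each). The log2 fold change was 4.55 with a standard error of 0.41 (adjusted p = 6.43e-06, edgeR). In RefSeq the gene overlaps sugct, whose row held 4, 5 and 0 counts in PV libraries and 8, 0 and 0 counts in PG libraries. Use of strand in counting is not stated, and these few sugct counts show no rise of the size seen for inhbaa.

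The other activin beta genes did not all follow it. The gene paired with inhbab (ENSDARG00000024759), a second beta A gene, had 0 counts in the PV libraries and 3, 0 and 0 counts in the PG libraries. Further, 2 rows of the table carry the name INHBB, the beta B subunit, in the gene name list, and they differed from each other. The row ENSDARG00000103892, listed as CABZ01074203.1 in the study's gene table, had 84, 62 and 79 counts in PV follicles, against 7, 11 and 2 counts in PG follicles. Its log2 fold change was 3.44 with a standard error of 0.37 (adjusted p = 2.19e-05, edgeR). The row ENSDARG00000040777 had 15, 15 and 10 counts in PV follicles and 18, 26 and 12 counts in PG follicles, and was not called (log2 fold change -0.55, standard error 0.49, adjusted p = 0.346, edgeR). Values of both rows are uncertain as far as they share sequence, and the files do not say whether they are separate genes.

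Counts of fsta, a follistatin gene, were found in PV libraries alone. The counts of fsta were 29, 15 and 27 in PV libraries, against 0, 0 and 0 in PG libraries. In RefSeq the gene overlaps LOC141385704, a protein-coding gene that could not be paired with a row, so its counts could not be compared. Its normalized count was 21.7 ± 2.46 in PV follicles (SD, n = 3) and 0 in each PG library. Set against 3 counts over the PG libraries together, the most that 0 counts allow, fsta was at least 22.7-fold higher in PV follicles (adjusted p = 0.000269, edgeR). At the PV level the PG libraries would have held 31.1, 24.8 and 12.3 counts. In PV libraries there were 0.315, 0.211 and 0.297 counts of fsta for each count of inhbaa. At their summed ratio the 10 inhbaa counts of the PG libraries would have come with 2.80 counts of fsta, below either limit for 0 counts. The absence of fsta from PG libraries therefore does not show that its ratio to inhbaa differed between the stages.

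The second follistatin gene, fstb (ENSDARG00000057992), had 12, 7 and 8 counts in PV libraries and 4, 8 and 0 counts in PG libraries and was not tested. The related binding protein gene fstl3 (ENSDARG00000025670), whose product also binds activin in mammals, had 394, 202 and 336 counts in PV libraries, against 117, 96 and 22 counts in PG libraries. It rose by 1.97 on the log2 scale, with a standard error of 0.21 (adjusted p = 1.94e-05, edgeR). Of the 3 follistatin-type genes, fsta was thus the one without a PG count.

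The largest fitted rise among the genes with a PG count was that of amh. Its counts were 100, 84 and 91 in PV libraries, against 4, 0 and 0 in PG libraries. The normalized count was 87.8 ± 15.6 in PV follicles and 0.938 ± 1.63 in PG follicles (SD, n = 3 each). The log2 fold change was 5.98 with a standard error of 0.57 (adjusted p = 9.05e-06, edgeR), and 43 of the 15899 tested genes had a larger one. All of its PG counts came from PG replicate 1, the deepest library. Without that library the PG follicles held no amh count, and its level was at least 47.9-fold higher in PV follicles, against 3 counts over the other PG libraries together. This bound is approximate in the same way as that of fsta. With all libraries the summed fold was 66.1, with a counting interval of 25.5 to 244.

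Within a stage, the libraries did not rank alike for all 5 genes, but some of these ranks rest on few counts. In PV follicles the normalized counts of fshr, inha, inhbaa and amh were highest in PV replicate 2, at 90.7, 248, 89.5 and 106. By contrast, fsta was lowest there, at 18.9 from 15 counts. The spread over the PV libraries was 19.5% of the mean for fshr, where counting error alone would give 11.3%. For inhbaa it was 10.8%, the same as the 10.9% expected from counting. For fsta it was 11.3%, below the 20.6% expected from counting, so its low value in PV replicate 2 is within counting error. In PG follicles inha was highest and inhbaa lowest in the same library, PG replicate 1, which held 2 inhbaa counts. Counted over genes and libraries, 15 of 15 PV values and 9 of 15 PG values held at least 1 count.

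How the alpha subunit stood to the beta A subunit was then taken within each library, where no scaling enters. Counts were not divided by transcript length, which the tables used here do not give, so the ratios below compare stages and are not molar ratios. In PV libraries there were 2.68, 2.77 and 2.38 counts of inha for each count of inhbaa, against 26, 5.6 and 3 in PG libraries. The PV ratios were close to each other, and every PG ratio was higher than every PV ratio. As a share of the 2 genes' summed counts, inha made up 72.9%, 73.5% and 70.5% in PV libraries, and 96.3%, 84.8% and 75.0% in PG libraries. The 95% exact binomial interval of PG replicate 1, 87.3% to 99.5%, lay above those of all PV libraries, whereas the interval of PG replicate 3, which rests on 12 counts, ran from 42.8% to 94.5%. On the log2 scale with 0.5 added to each count, the ratio was 1.38 ± 0.11 in PV and 2.74 ± 1.51 in PG follicles (SD, n = 3 each), a difference of -1.36 (two-sided exact permutation test, p = 0.2, adjusted p = 0.286 over 10 ratios). With 3 libraries against 3 this test cannot go below 0.1. The values with 0.5 added overlapped, whereas the plain ratios did not, so separation of the stages depended on the amount added. With 0.1 added the difference was -1.50 (exact permutation test, p = 0.1), and with 1 added it was -1.21 (exact permutation test, p = 0.3). Without PG replicate 1 the difference with 0.5 added was -0.53, so it did not exceed the spread between the PG libraries.

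**Figure D2:**
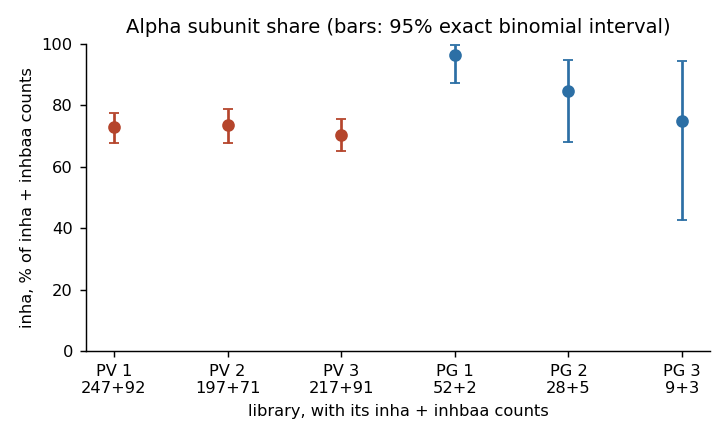
Share of inha among the summed inha and inhbaa counts (vertical axis, percent) in each library, with both counts under its name. Bars are 95% exact binomial intervals for counting error; PV libraries lie between 70.5% and 73.5%, and PG libraries between 75.0% and 96.3% with wider bars.

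The result turned on which beta rows were counted. When inhbaa, inhbab and both INHBB rows were added up, there were 1.29, 1.33 and 1.21 counts of inha per beta count in PV libraries, against 1.73, 0.667 and 0.529 in PG libraries. The PV ratios now lay inside the range of the PG ratios, and the difference of the log2 ratios turned to 0.57 (exact permutation test, p = 0.4). With the row ENSDARG00000103892 alone as the beta subunit, a choice not planned beforehand, the difference kept its sign at -0.46 (exact permutation test, p = 0.4). In the makeup of the beta counts, which was not tested, the stages did not overlap. The PG shares rest on 2, 5 and 3 inhbaa counts, and the difference largely follows from the rise of inhbaa given above. The gene inhbaa accounted for 48.2%, 48.0% and 50.6% of them in PV libraries, against 6.67%, 11.9% and 17.6% in PG libraries, where the row ENSDARG00000040777 held most of the beta counts.

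Follicle cell markers were measured beside these genes, because oocyte and follicle cells were sequenced together. Of 8 listed markers 7 were paired with a row (foxl2a, foxl2b, cyp19a1a, gsdf, hsd17b1, wnt4a and kitlga), and all 7 were called higher in PV follicles, beside 13.2% of all genes tested. The names of 6 of the 7 came from the study's supplementary gene list, which mostly holds genes that it called. The markers were thus mostly found through their difference between the stages, and ratios to them below carry the same limit. Their summed normalized count ranged from 1600 to 2032 in PV libraries, against 93.9 to 150 in PG libraries, a 13.9-fold difference of the means. The 7 paired oocyte markers included 2 called lower and none called higher (median -0.16 on the log2 scale), and their summed normalized count was 49308 to 51044 in PV libraries, against 98598 to 104606 in PG libraries. Most of this sum came from the 2 called lower, buca (mean 24229 in PV and 51132 in PG follicles) and zar1 (10802 and 35168). The other 5 were not called, so the sum does not describe the markers as a set.

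The PV to PG difference of each gene was then taken relative to the summed counts of the 7 markers in the same library. The log2 ratio of amh to the markers was -4.37 ± 0.30 in PV and -6.88 ± 1.44 in PG follicles (SD, n = 3 each), and that of fshr was -4.59 ± 0.40 in PV and -5.72 ± 0.85 in PG follicles. For both the PV values lay above all PG values, by 2.51 for amh and 1.14 for fshr on average (exact permutation test, p = 0.1 each, the smallest it can give, adjusted p = 0.167 over 10 ratios). In PG libraries without a count of the gene the value is set by the 0.5 that was added and by depth. This held for amh in PG replicates 2 and 3 and for fshr in PG replicate 3, so the size of both differences is uncertain. Without PG replicate 3 the fshr difference was 0.65. The fshr values of PG replicates 1 and 2, -5.24 and -5.23 from 5 and 4 counts, lay close to the -5.04 of PV replicate 1. The ratio of inha to the markers moved the other way, at -3.11 ± 0.26 in PV and -2.34 ± 0.31 in PG follicles, a difference of -0.77 (exact permutation test, p = 0.1, adjusted p = 0.167). Relative to the mean of the log2 marker counts in place of their sum, the inha difference was -0.36 (exact permutation test, p = 0.3). For inhbaa the ratio was -4.49 ± 0.28 in PV and -5.07 ± 1.25 in PG follicles (SD, n = 3 each). The stages overlapped for inhbaa (difference 0.58, exact permutation test, p = 0.6, adjusted p = 0.667), and without PG replicate 1 the difference was -0.071. No ratio passed an adjusted p of 0.05, which this number of libraries cannot reach.

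**Figure D3:**
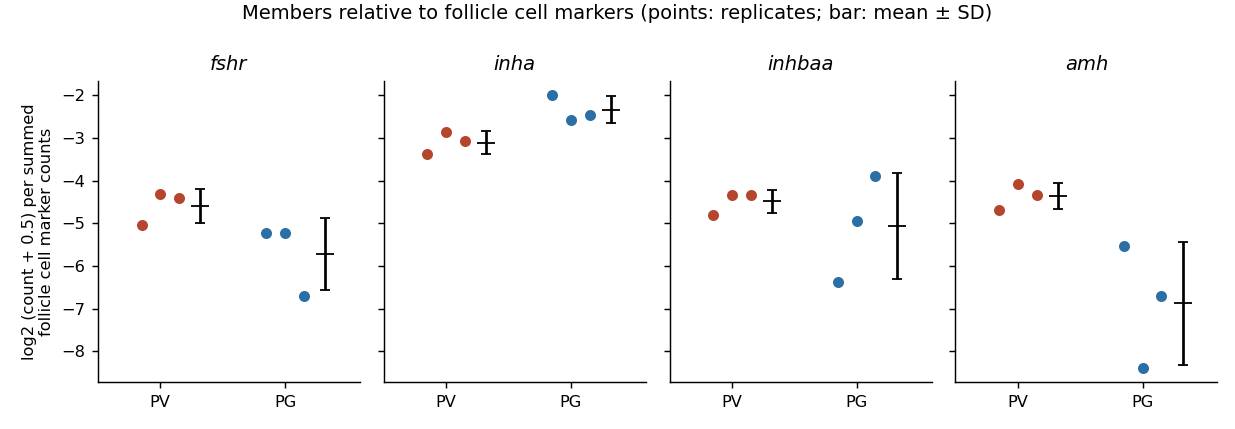
Log2 ratio of each gene's count plus 0.5 to the summed counts of 7 follicle cell markers (vertical axis) in PV and PG libraries. Points are libraries, and bars are means with SD. Values of amh and fshr lie higher in PV than in PG libraries, inha lies lower, and inhbaa overlaps. For amh and fshr, PG values from libraries without a count rest on the 0.5 added.

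Ratios between the members were compared next. Both amh and fshr stood higher relative to inha in PV follicles. The log2 ratio of inha to amh was 1.26 ± 0.04 in PV and 4.54 ± 1.17 in PG follicles (SD, n = 3 each), and that of fshr to inha was -1.48 ± 0.17 in PV and -3.39 ± 0.80 in PG follicles. For both ratios the stages did not overlap (exact permutation test, p = 0.1 each, adjusted p = 0.167 over 10 ratios), and PG values from libraries without a count again rest on the 0.5 added. The log2 ratio of fshr to amh was -0.22 ± 0.14 in PV and 1.15 ± 1.75 in PG follicles (SD, n = 3 each), also without overlap (exact permutation test, p = 0.1, adjusted p = 0.167). In PG replicate 3 neither gene had a count, so its ratio of 0 comes from the 0.5 added alone. The amh count was 0 in PG replicate 2 as well, so the lack of overlap shows nothing about this ratio. That of inhbaa to amh was -0.12 ± 0.12 in PV and 1.81 ± 2.32 in PG follicles, with overlap (exact permutation p = 0.4, adjusted p = 0.5). The log2 ratio of fshr to inhbaa was -0.10 ± 0.13 in PV and -0.65 ± 2.00 in PG follicles (SD, n = 3 each), which overlapped (exact permutation test, p = 0.7, adjusted p = 0.7). All PV ratios among fshr, inha, inhbaa and amh had an SD of 0.17 or less, below that of the same ratio in PG libraries.

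Markers of other cells that whole ovary could contribute also moved between the stages. Of 4 tested endothelium markers 3 were called higher, with a summed normalized count of 403 to 500 in PV and 180 to 297 in PG libraries. Of 4 tested stroma markers 3 were called higher, with sums of 817 to 902 in PV and 307 to 471 in PG libraries. Of 5 tested theca and steroid-producing cell markers 2 were called higher and none lower, although their summed count was lower, at 8914 to 9434 in PV and 14518 to 16079 in PG libraries. None of the 5 leukocyte markers was called, and 2 of the 3 paired red blood cell markers were called lower, with sums of 147 to 399 in PV and 608 to 819 in PG libraries. Every marker called in these lists was named from the study's supplementary gene list, and none of those named otherwise was called. These counts therefore depend on how names could be found, beside 13.2% higher and 5.97% lower among all genes tested. No paired marker of these lists was at 0 in all libraries, and their part in the results above was not tested.

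The other genes of the pathway were read from lists of ligands, receptors, Smads and gonadotropin receptor signalling genes. Of 48 listed genes 38 could be paired with a row, 34 were tested, 14 were called higher and 2 lower, and the median log2 fold change was 0.92, beside 0.03 over all genes tested. The study's supplementary gene table, which mostly holds the genes that it called, supplied the names of 18 of these genes, and 14 of the 18 were called higher. Among the 16 tested genes that were named from other tables none was called higher and 1 was called lower, so the counts per list depend on how names could be found. This holds for each list below, where every gene called higher was named from the supplementary table.

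Of the 5 tested ligand and binding protein genes 2 were called higher and 1 lower, beside 13.2% and 5.97% of all genes tested. The largest rise was in gsdf, a TGF-β family ligand of gonadal somatic cells in fish, with 471 ± 9.36 normalized counts in PV and 38.3 ± 2.69 in PG follicles (SD, n = 3 each), or 3.63 on the log2 scale, and it is also one of the 7 follicle cell markers. The gene with the most counts, gdf3, an oocyte-expressed TGF-β family ligand, was called lower, with 6847 ± 299 in PV and 15313 ± 974 in PG follicles or -1.16 on the log2 scale. It was no longer called when libraries were scaled by their totals (-0.75).

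Of the 12 tested receptor genes 5 were called higher and 1 lower, beside 13.2% and 5.97% of all genes tested. The type II BMP receptor gene bmpr2a had 60.8 ± 9.09 normalized counts in PV and 6.50 ± 8.40 in PG follicles (SD, n = 3 each), a rise of 3.03 on the log2 scale (standard error 0.61) that was 4.56 without PG replicate 2. The receptor gene with the highest mean count was acvr1l, at 2598 ± 57.6 in PV and 1248 ± 76.7 in PG follicles, a rise of 1.06 on the log2 scale. The type I receptor gene acvr1c was called lower at -1.05, just past the threshold, and the call was lost without PG replicate 3 (-0.97), without PV replicate 3 (-1.0, adjusted p = 0.0134, edgeR) and under scaling by library totals (-0.63).

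Among 9 tested Smad genes 5 were called higher and none lower, beside 13.2% and 5.97% of all genes tested. The inhibitory Smad gene smad6b had a log2 fold change of 2.63 with a standard error of 0.87, and its call was lost without PG replicate 2, PV replicate 1 or PV replicate 2 (adjusted p = 0.0558, 0.0738 and 0.0528, edgeR), while all its PG counts came from PG replicate 1, without which the fitted value was 7.10. The Smad gene of highest mean count, smad5, which acts downstream of BMP receptors, had a log2 fold change of -0.50 (adjusted p = 1.71e-06, edgeR). It fell short of the threshold for size alone and was not called.

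Of the 8 tested genes of gonadotropin receptor signalling 2 were called higher, beside 13.2% of all genes tested. The gene prkacab, a catalytic subunit of the cyclic AMP dependent protein kinase, had 129 ± 12.4 normalized counts in PV and 17.8 ± 7.02 in PG follicles (SD, n = 3 each), a rise of 2.78 on the log2 scale (standard error 0.26). Its paralog prkacaa, the gene with the most counts of this list, changed by 0.38 on the log2 scale (adjusted p = 0.000801, edgeR). This change fell short of the threshold for size alone, so prkacaa was not called. The G protein gene gnas, through which Fshr signals and which is named here with its value already known, had 1394 ± 23.6 normalized counts in PV and 1273 ± 15.7 in PG follicles (SD, n = 3 each), and was not called (log2 fold change 0.13, adjusted p = 0.0538, edgeR).

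**Figure D4:**
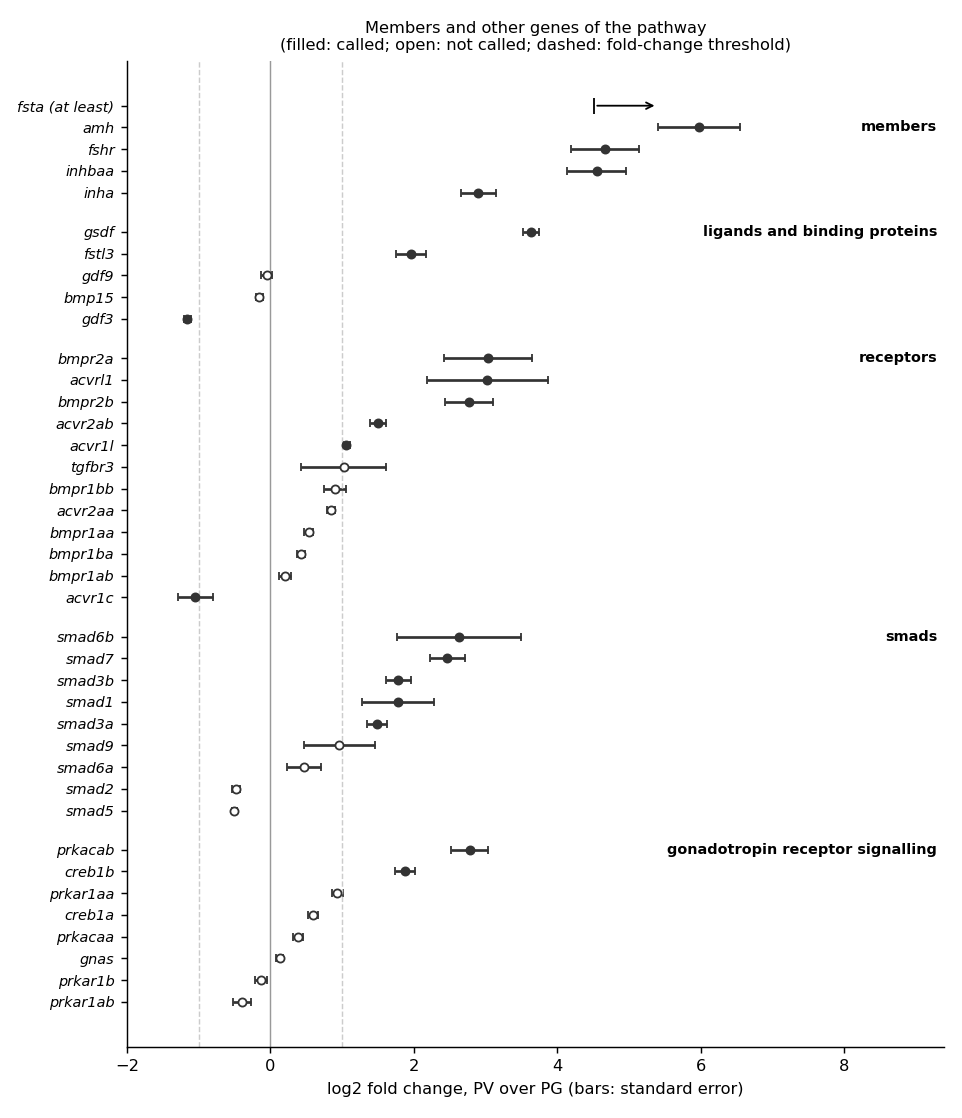
Log2 fold change, PV over PG (horizontal axis), of the members and of the other tested genes of the pathway lists, with standard errors as bars. Filled points were called and open points were not, dashed lines mark a log2 fold change of 1 in size, and the arrow of fsta starts at its lower bound of 22.7-fold; the members lie at 2.90 or more, and of the other genes gsdf is highest at 3.63.

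Genes whose values ran most nearly like those of each member over the 6 libraries were found by the root mean square distance between log2 CPM values (counts scaled to library size), each centred on its own mean. For fshr the nearest 3 were notch3 (distance 0.18), quo (0.20) and comta (0.20). For inha they were PAOX, si:ch211-197h24.9 and si:ch211-281l24.3 (0.16 each). The nearest to inhbaa were farther away, namely mt-nd4l (0.34), mt-atp6 (0.35) and AC024175.12 (0.35), and so were those of amh, namely zgc:158689 (0.33), myo7aa (0.41) and klhl41b (0.41). The members themselves lay 0.62 (fshr and amh) to 1.09 (inha and amh) apart. The 6 libraries fall into 2 stages, so nearness here mostly reflects a PV to PG difference of similar size.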

How the data were processed

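RNA of PV and PG follicles was sequenced as paired-end reads on an Illumina HiSeq instrument. The labels name a TruSeq kit and the methods a directional NEBNext kit, so strandedness is unsettled. The authors aligned reads to GRCz10 with TopHat2 and deposited raw counts per Ensembl gene from StringTie and prepDE, which derives counts from coverage and a read length setting whose value is not given in the sources used here. Both mates add coverage, so counts are not independent molecules. The intervals, limits and expected spreads treat them as independent, so they may fall short even of counting error, and they cover no other error. A second deposited table holds a normalized signal, the raw count over the DESeq2 size factor of its library (0.554 to 1.42).

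Stages and replicate numbers came from sample titles. The methods describe 3 groups of fish that each gave both stages, but no label ties the replicate numbers to these groups. Genes were filtered with filterByExpr of edgeR 4.0.16 (minimum count 10, minimum total 15), scaled by TMM and tested with the quasi-likelihood test in R 4.3.3, with stage as the factor and Benjamini-Hochberg adjustment over all 15899 genes; the fits were checked on simulated data. Ratios were tested in scipy 1.17.1. Alternatives were DESeq2 1.42.0, other scalings and filters, leaving out each library in turn and a block on replicate number. The members and lists were chosen with earlier results of these data known. Symbols came from the supplementary gene table, the gene name list and RefSeq (GRCz12tu), used for names and for which genes overlap or adjoin, with no coordinates printed. Where a paralog had no entry, the 1 unclaimed row of its base symbol was taken (fstb, inhbab, foxl2a, buca, cyp11a1, acvr2aa, bmpr1aa, smad6a and prkar1aa). Named genes were the members, their closest paralogs and partners, the called gene of largest change in each direction and the gene of highest mean count in each pathway list, and 3 genes of nearest profile for fshr, inha, inhbaa and amh. The supplementary table also holds fold changes and p-values, which were not used.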

Additional observations from a re-analysis of the deposited data

How the results depend on the processing

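All 5 members kept their direction and their call in all 75 values from alternatives, each being 1 member under 1 setting. The largest adjusted p was 0.00479 (fsta, replicate block, edgeR). Under the main filter fshr, inhbaa, fsta and amh could enter only by being higher in PV follicles. That filter was kept in the fits without 1 library, so there the kept direction of these genes is a description and no independent support. With the minimum of 10 counts in every library no member was tested. Leaving out 1 library at a time gave log2 fold changes of 4.36 to 4.94 for fshr, 2.73 to 3.26 for inha, 4.03 to 4.87 for inhbaa, 7.43 to 7.68 for fsta and 5.37 to 9.42 for amh; fitted values of fsta, and of amh without its PG counts, depend on the prior count and are no bounds. A prior count of 2 gave 3.64 for fsta and 4.83 for amh.

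Scaling by library totals called 3664 genes higher and 415 lower and moved the median of all genes by 0.42 (89.8% of calls higher, 68.9% as reported). Scaling by the oocyte markers, of which 2 were called lower, called 8105 higher and 154 lower and moved it by 1.01 (98.1% higher). At least 10 counts in every library gave 1223 and 614, and a test against a fold change of 2 gave 1025 and 410. Of the pathway genes 26 were called higher under oocyte marker scaling, and 0 were called lower under either scaling. Without 1 library 13 to 14 were called higher and 1 to 2 lower. Under oocyte marker scaling the log2 fold change of ENSDARG00000040777 turned to 0.46 and that of smad5 to 0.51, and prkacaa was called at 1.39.

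Without 1 library the log2 alpha to beta difference ranged from -2.0 to -0.53, and relative to the markers fshr ranged from 0.65 to 1.38, inha from -0.90 to -0.60, inhbaa from -0.071 to 1.17 and amh from 1.75 to 3.18. Summing all beta rows turned the alpha to beta difference to 0.57. At a limit of 10 counts 2 of 15 PG values remained detected. Without PG replicate 1 the relative difference of inhbaa turned to -0.071. The cause of these shifts was not tested.

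With the replicate number as a block, 1983 genes were called higher and 860 lower, and all 5 members kept their calls. Deviations of same-numbered libraries from their stage means had correlations across 12229 genes of -0.01, -0.01 and 0.02. No pairing by number was visible in them, but this cannot show that same-numbered libraries came from different fish. Paired differences within numbers gave the same alpha to beta difference of -1.36, with an exact permutation p of 0.25, the smallest that 3 pairs allow.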

Other observations

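Of the genes that RefSeq places next to the members, none of those tested was called, beside 19.2% of all genes tested. These are few genes, and other neighbours, among them gyg1b, isl1a and oaz1a, could not be paired with a row. For nrxn1a, next to fshr, the log2 fold change was 0.92 (standard error 0.23, adjusted p = 0.00529, edgeR), below the threshold for size alone. For ndufs4, next to fsta, it was 0.05 (standard error 0.08), and for dot1l, next to amh, it was 0.33 (standard error 0.20). Next to inha, gjc4a.2 had 34 counts in PV and 39 counts in PG libraries in all, and spega had 0 counts in PV and 24 counts in PG libraries.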
